A study of Rattus norvegicus with 3 samples.

Results

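Chemokines and their receptors were examined in 3 soft tissues of the rat upper jaw. The members were all genes whose symbol begins with Ccl, Cxcl, Ccr, Cxcr or Ackr and a number, plus Cx3cl1, Cx3cr1, Xcl1, Xcr1, Ccrl2, Pf4 and Ppbp. Of the 14217 genes with a named probe set, 48 met this rule, 31 of them ligands and 17 receptors, and the array table named no probe set for Xcr1. Each gene was read from its brightest probe set, a group of short probes summarised together.

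The tissues came from wild-type male Sprague-Dawley rats that were 9 weeks old at harvest, with 1 array per tissue. Peri-implant connective tissue (PICT) surrounded a titanium alloy implant that had been set into the fresh socket of an upper first molar at 5 weeks of age, 4 weeks before harvest. Periodontal connective tissue (PCT) surrounded an upper first molar that was left in place, and oral mucosal connective tissue (OMCT) was the site of the same tooth 4 weeks after extraction, with no implant. All were cut out by laser microdissection, and how many animals were pooled for an array was not stated in the labels. Every sample is labelled as rat, although the design text once calls the PCT animals mice.

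Chemokines are small secreted proteins that bind to G protein-coupled receptors on leukocytes and steer the cells along a gradient. CXC ligands with a glutamate-leucine-arginine motif call neutrophils through CXCR1 and CXCR2, the interferon-induced CXC ligands call activated T cells through CXCR3, and many CC ligands call monocytes through CCR1 and CCR2. Homeostatic ligands such as CXCL12, CXCL13 and CCL21 place cells within tissues and lymphoid organs, and atypical receptors take up chemokines without classical G protein signalling. In gum tissue, bacteria at the tooth surface keep a steady traffic of neutrophils across the epithelium.

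The arrays differed in overall brightness, with a median intensity of 56.5, 34.3 and 57.4 in PICT, PCT and OMCT. Each array was therefore multiplied by a constant (0.851, 1.40 and 0.838 respectively) to bring it to a common median of 48.1, and levels below are these scaled intensities. A log2 difference is that of scaled intensity plus 8.78, which understates the difference of dim genes. A gene counted as higher or lower when the difference reached 1 (2-fold) and the brighter array lay at or above the median probe set. Since each tissue has 1 array, replicate spread is unknown and nothing was tested. Probe sets of the same gene differed among themselves with an SD of 0.47 to 0.49 in log2 difference. The scaling rests on most genes being alike. After it, the 9 spiked hybridisation controls lay lower in PICT than in PCT, with a median difference of -0.51, against 0.21 as deposited. The PCT array also had the highest ratio of 3' to 5' signal for hexokinase, a sign of shortened RNA, at 2.80, against 1.58 in PICT and 1.97 in OMCT. The part of either in the differences from PCT was not tested.

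Cell type markers showed what the sections held besides connective tissue. Basal keratinocyte markers summed to a scaled intensity of 16982, 34286 and 16363 in PICT, PCT and OMCT over 7 genes, so epithelium was present on every array. Markers of differentiated epithelium summed to 20406, 27495 and 3415 over 10 genes, and 9 of the 10 were at least 2-fold lower in OMCT than in either other tissue. The 14 macrophage and monocyte markers summed to 9244, 1847 and 10487, and the 7 neutrophil markers to 5468, 959.7 and 1579. Bright genes dominate such sums, in PICT Lyz2 at 7419 as deposited and S100a9, Mmp9 and S100a8 at 2794, 1836 and 1376. The list medians for PICT minus PCT and PICT minus OMCT were 2.02 and -0.56 for macrophages, and 1.86 and 1.59 for neutrophils. B cell and plasma cell markers summed to only 21.4, 20.3 and 31.0 over 4 genes. In tissue samples such as these, fewer cells of a type and less RNA per cell cannot be told apart.

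**Figure D1:**
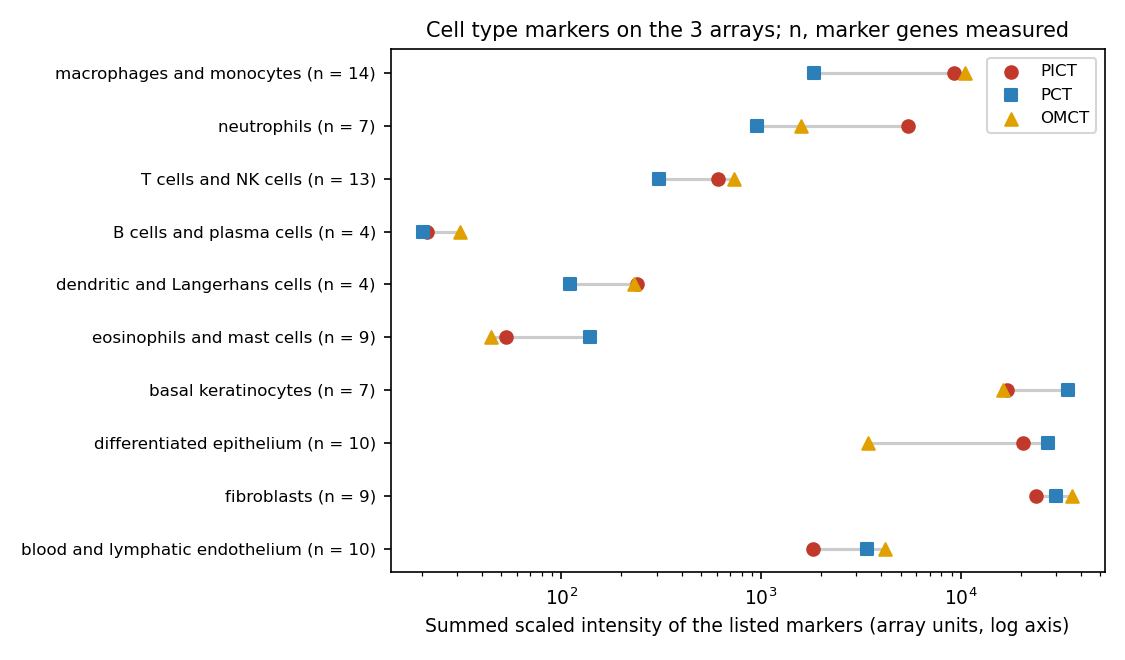
Summed scaled intensity (array units, log axis) of the measured markers of 10 cell types, with a red circle for PICT, a blue square for PCT and a yellow triangle for OMCT, and 1 array per tissue. The sum was lowest in PCT for macrophage markers, highest in PICT for neutrophil markers and lowest in OMCT for differentiated epithelium. Bright genes dominate the sums.

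A larger share of the chemokine genes than of all genes was at least 2-fold apart between the tissues. PICT against PCT sets tissue around an implant beside tissue around a tooth: 12 of the 48 members (25%) were higher in PICT and 3 (6.25%) lower, where 3.64% of all genes were higher and 3.94% lower (7.58% in either direction). Their median difference was 0.47, against -0.10 over all genes. PICT against OMCT sets a socket with an implant beside one that healed without it: 12 members were higher in PICT and 6 (12.5%) lower, where 4.04% of all genes were higher and 4.38% lower (8.43% together), and the medians were 0.35 and -0.04. In OMCT against PCT, 9 members (18.8%) were higher and 5 (10.4%) lower, where 5.3% and 5.41% of all genes were (10.7% together), and the medians were 0.23 and -0.05. These comparisons share arrays, so they are not independent. The shares of all genes given here are also the background for the counts of gene lists below.

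**Figure D2:**
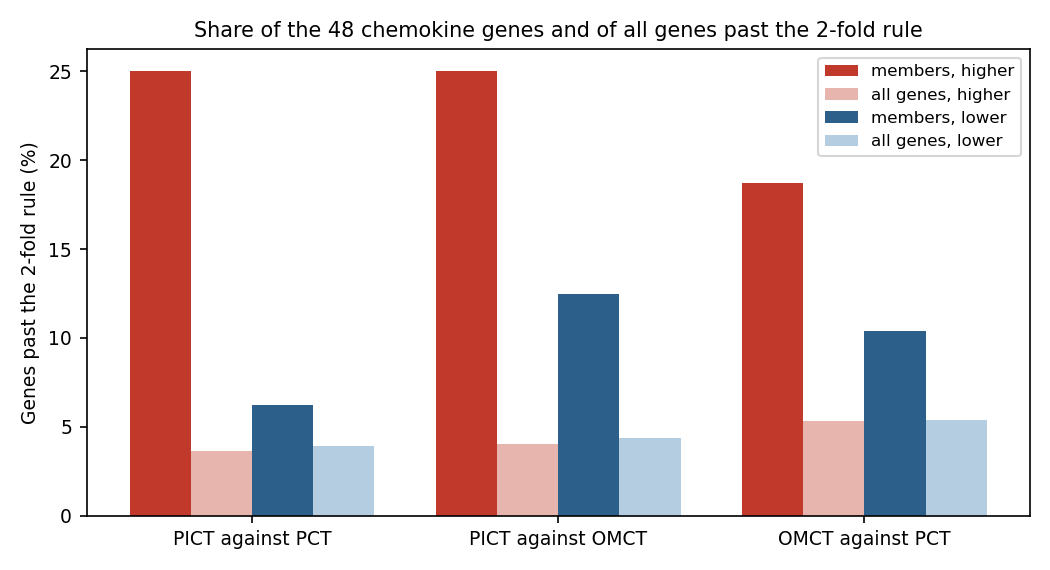
Percent of the 48 members (dark bars) and of all 14217 genes (pale bars) that were higher (red) or lower (blue) by the 2-fold rule in each comparison. The members' shares of higher genes, 25%, 25% and 18.8%, stand above those of all genes, 3.64%, 4.04% and 5.3%.

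The counts against PCT depended on the scaling. As deposited, PICT had 20 higher members and 1 lower, where 14.1% and 0.9% of all genes were. Higher members then made up 95.2% of those past the rule and not 80%. Among all genes past the rule, the higher share was 94.0% as deposited and 48.1% after scaling. In OMCT against PCT the deposited values gave 15 higher and 3 lower, where 17.6% and 2.1% of all genes were. Higher members made up 83.3% in place of 64.3% of those past the rule. Among all genes past it, the higher share was 89.4% in place of 49.5%. PICT and OMCT were nearly equally bright, and that comparison kept 12 higher and 6 lower members as deposited.

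In all, 26 members passed the rule in at least 1 comparison. Most of them fell into a few patterns over the 3 arrays. The shares of all genes in these patterns were not counted, so the counts describe the members alone. Higher in PICT than in both other tissues were 7 genes, the ligands Cxcl2, Cxcl6, Cxcl10 and Ccl3 and the receptors Ccr1, Cxcr4 and Ccrl2. Higher in OMCT than in both were 5, Cxcl13, Ccl21, Ccr2, Cx3cr1 and Ackr4. Higher in both sockets than around the tooth were 4, Ccl2, Ccl7, Ccl9 and Pf4. Lower in OMCT than in both were 3, Ccl6, Cxcl14 and Cxcr2, and lower in both sockets than around the tooth were Cx3cl1 and Ppbp.

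**Figure D3:**
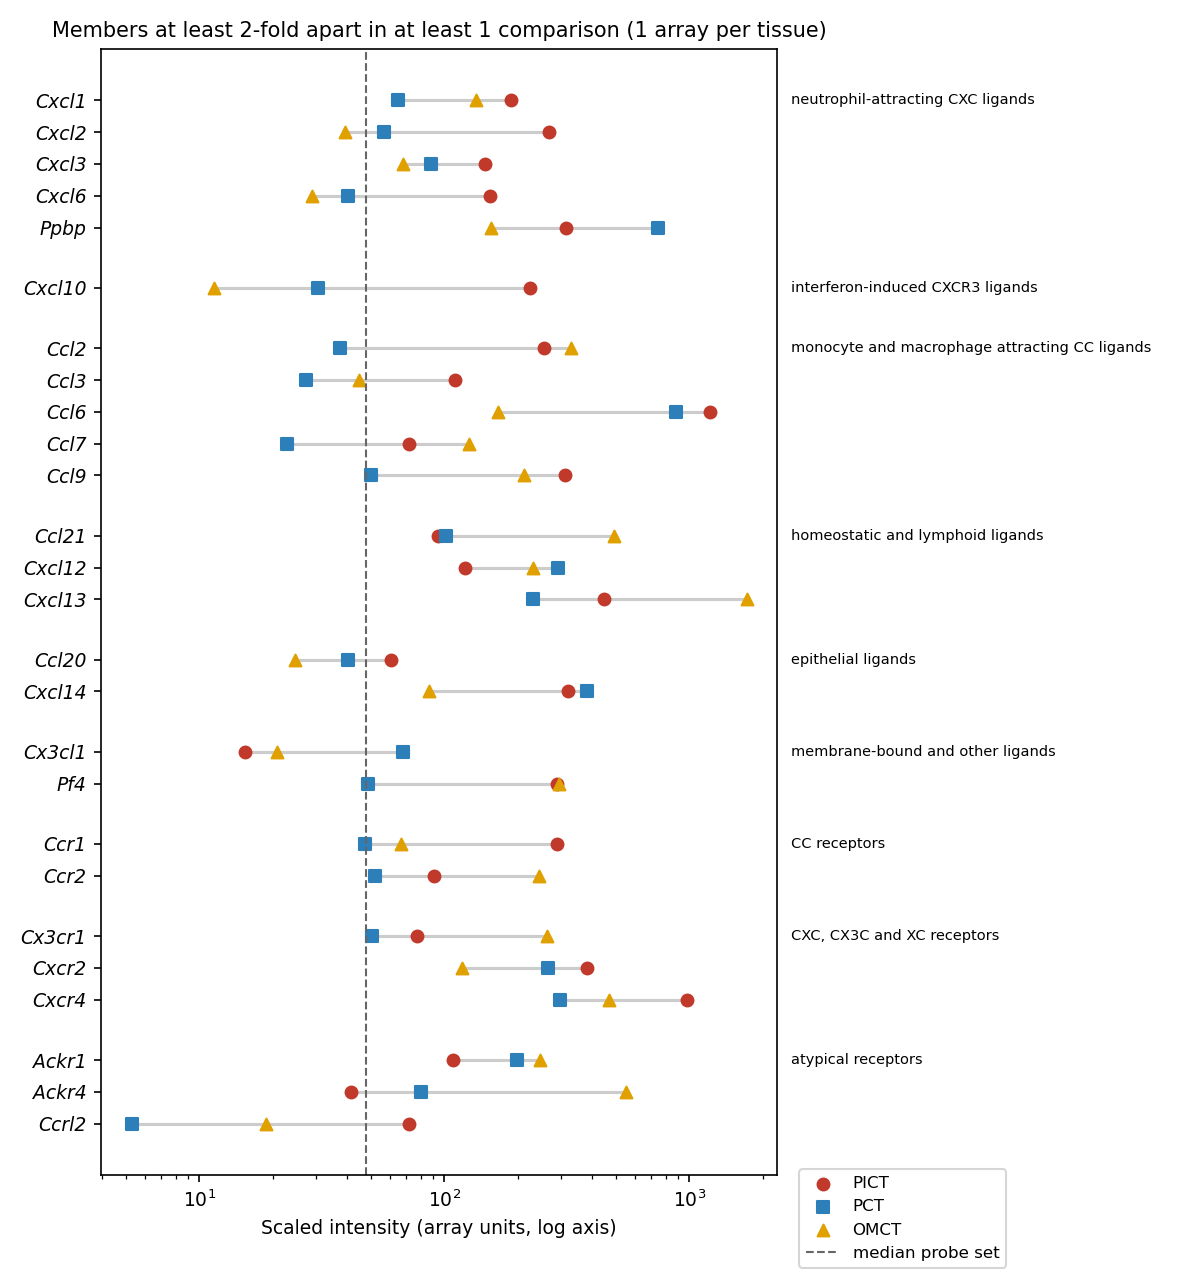
Scaled intensity (array units, log axis) of the 26 members past the 2-fold rule in at least 1 comparison, grouped by role, with 1 array per tissue (red circle PICT, blue square PCT, yellow triangle OMCT) and a dashed line at the common median of 48.1. The grey bars join the lowest and highest array, and the levels of different genes come from different probes and are not comparable with each other.

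The ligands that call neutrophils were highest in PICT, apart from Ppbp. Cxcl2, which encodes a fast-induced attractant made by macrophages and epithelium, had a level of 268, 56.7 and 39.2 in PICT, PCT and OMCT. In log2, PICT exceeded PCT by 2.08 and OMCT by 2.53. PICT alone was high, and the other tissues lay close to the median probe set.

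Cxcl6, the rat gene for the LPS-induced neutrophil attractant LIX, had 154 in PICT, 40.5 in PCT and 28.7 in OMCT, and PICT exceeded them by 1.72 and 2.11. It followed the same order of tissues as Cxcl2. Cxcl1, which encodes the attractant first described as KC or CINC, had 188, 64.9 and 135, with 1.42 against PCT. Its difference from OMCT, 0.45, did not pass the rule, nor did that of OMCT from PCT, 0.96. PCT was the lowest array for Cxcl1, but by the rule OMCT differed from neither other tissue.

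Cxcl3, a close relative of Cxcl1 and Cxcl2, had 147 in PICT, 88.2 in PCT and 68.0 in OMCT. Against OMCT PICT was higher by 1.02, just inside the rule, and against PCT by 0.69. Cxcl3 has 5 probe sets, of which 3 gave differences from OMCT of 1.01 to 1.88 and 2 were near the floor, and probes for these related genes may share targets. Averaged over its probe sets, Cxcl3 no longer passed.

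Ppbp ran the other way. It encodes pro-platelet basic protein, which platelets store and from which a CXCR2 ligand is cut, and its level was 315, 746 and 155 in PICT, PCT and OMCT. It was highest around the tooth, with -1.22 for PICT against PCT and -2.20 for OMCT against PCT. As deposited the PICT value against PCT was -0.51, under 2-fold.

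Cxcr2, the receptor for all of these ligands, had 383 in PICT, 265 in PCT and 118 in OMCT. The difference between PICT and OMCT was 1.62 and between OMCT and PCT -1.11, the last being -0.40 as deposited. OMCT was thus the low tissue for the receptor, whereas the ligands Cxcl2 and Cxcl6 were low in PCT as well. Cxcr1, the related receptor, had 15.5, 14.7 and 30.4, under the median probe set on every array.

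The neutrophil markers were not parallel to Cxcr2. In PICT, 5 of 7 exceeded PCT and 4 exceeded OMCT by the rule, with 0 lower in either comparison. Mmp8 was at or under the negative control in PCT and OMCT. S100a9, a calcium-binding alarmin of neutrophils, differed by 3.39 and 1.96, and Csf3r, the receptor for granulocyte colony-stimulating factor, by 1.71 and 1.04. Itgb2 differed by 2.69 and -0.21, and the dim Lcn2 by 0.36 and -0.82, so neither exceeded OMCT. In OMCT against PCT 3 were higher and 1, S100a8, lower, at -1.90. S100a8 is also made by keratinocytes, and it is among the markers higher in PICT, at 1.36 against PCT and 3.26 against OMCT. The part of epithelium in these marker differences was not tested. The part of neutrophil number in the ligand levels was not tested.

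Among the interferon-induced ligands of CXCR3, Cxcl10 had the widest gap between PICT and OMCT of the members that were higher in PICT. Its level was 224, 30.4 and 11.5 in PICT, PCT and OMCT, a log2 difference of 2.57 against PCT and 3.52 against OMCT. PICT was the only array on which it exceeded the median probe set.

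Cxcl11 had 47.3 in PICT, 5.76 in PCT and 1.86 in OMCT. It narrowly missed the brightness limit of 48.1 and so did not pass the rule, although its differences were 1.95 and 2.40. In PCT and OMCT its signal was no brighter than the top negative control. With those arrays set at that control, PICT was at least 5.91-fold and at least 15.7-fold higher. After scaling the control stood at 8.01 in PCT and 3.01 in OMCT, so these bounds are not comparable with each other. Cxcl9, the third ligand, had 27.4, 12.5 and 8.54, dim throughout, with 0.76 and 1.06.

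Their receptor Cxcr3, carried by activated T cells, did not follow: 29.9 in PICT, 22.4 in PCT and 22.3 in OMCT, under the median probe set everywhere. The 13 T cell and NK cell markers summed to 608, 307 and 734 in PICT, PCT and OMCT, with 5 at or under the negative control in PCT. By the rule PICT had 3 higher and 0 lower against PCT, and 1 of each against OMCT. Cd8a was no brighter than the top negative control in PCT and was higher in PICT than in OMCT by 1.46. Cd8b ran against it at -1.10, under the median probe set on every array, and Cd4 was lower than in OMCT at -1.58. The median of the 13 markers for PICT minus OMCT was 0.59. Their part in the ligand levels was not tested. Ifng, the cytokine that induces these ligands, was at or under the highest negative control in PICT and PCT, with intensities as deposited of 2.57 and 3.54, and at 7.69 in OMCT.

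**Figure D4:**
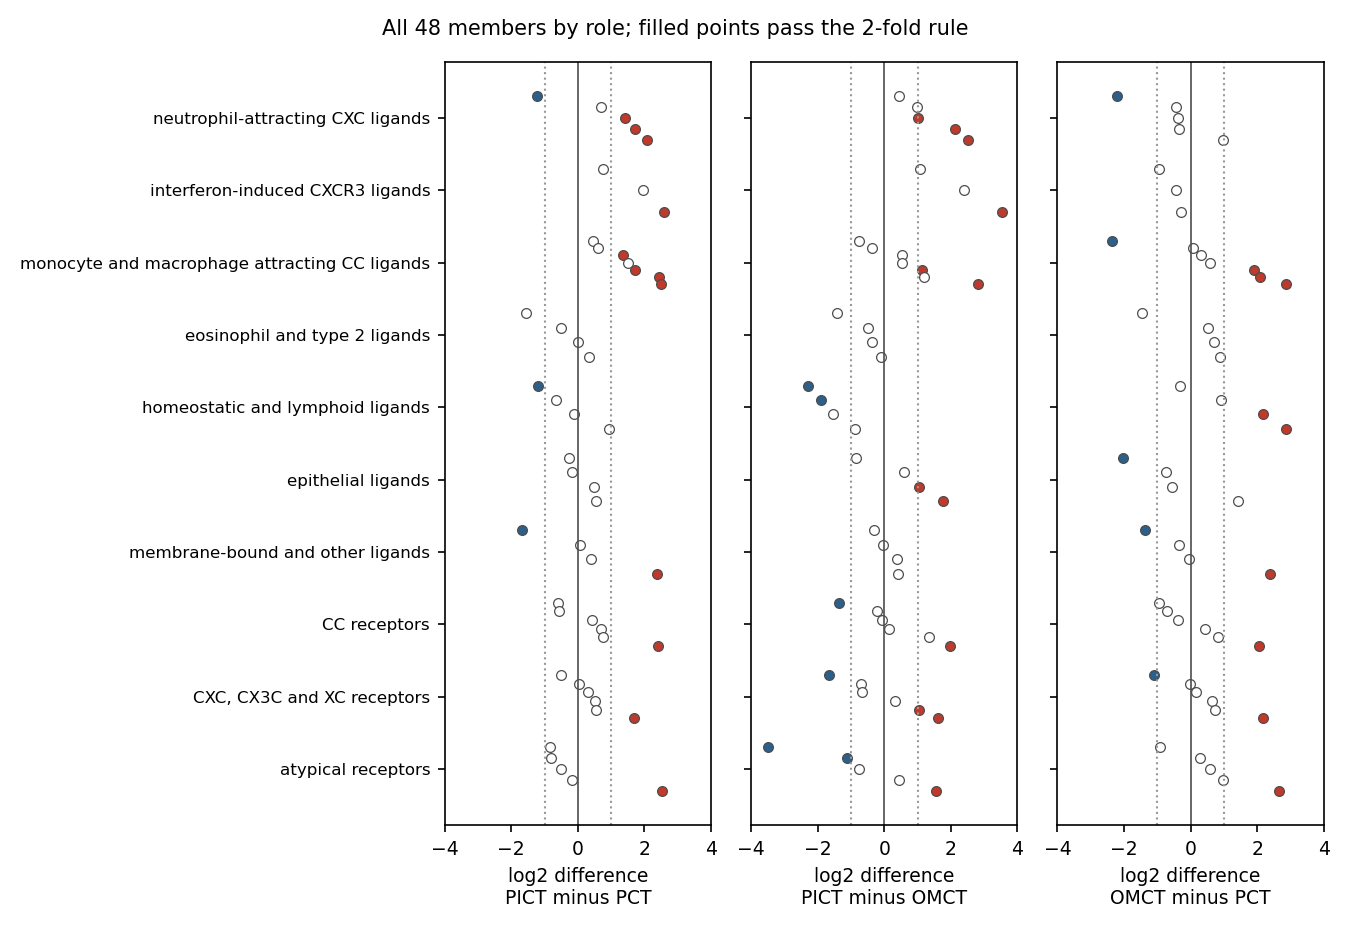
Log2 difference of all 48 members by role for PICT minus PCT, PICT minus OMCT and OMCT minus PCT, each point 1 gene from 1 array per tissue, with filled red points higher and filled blue points lower by the 2-fold rule and dotted lines at -1 and 1. Ppbp is the 1 neutrophil ligand that lies to the left in PICT minus PCT, and the homeostatic ligands lie to the left in PICT minus OMCT.

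Promoters of the ligands that stood out in PICT were read from RefSeq (assembly GRCr8), 250 bases before to 50 after the start site, to show what the genes share in sequence. Promoters were found for 37 of the 48 members, among them 6 of the 7 genes higher in PICT than in both other tissues. Capitals mark matches on either strand to GGG and CC with any 5 bases between, a loose pattern of sites for the inflammatory transcription factor NF-kB, and to GAAA and GAAA with any 2 bases between, the core of the interferon-stimulated response element. Matches that overlap run together, and the last sequence is that of Cxcl13, which was highest in OMCT. The coordinates are, in the order printed, chr14:15988816-15989115 (plus strand), chr14:17467206-17467505, chr14:17596368-17596667 and chr14:13917871-13918170 (all minus strand).
Cxcl10: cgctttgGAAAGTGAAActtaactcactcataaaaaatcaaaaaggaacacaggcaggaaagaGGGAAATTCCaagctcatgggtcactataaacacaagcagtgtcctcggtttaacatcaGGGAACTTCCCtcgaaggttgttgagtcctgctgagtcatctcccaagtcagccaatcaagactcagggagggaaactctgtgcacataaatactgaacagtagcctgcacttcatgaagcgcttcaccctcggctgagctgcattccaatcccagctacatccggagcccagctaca
Cxcl2: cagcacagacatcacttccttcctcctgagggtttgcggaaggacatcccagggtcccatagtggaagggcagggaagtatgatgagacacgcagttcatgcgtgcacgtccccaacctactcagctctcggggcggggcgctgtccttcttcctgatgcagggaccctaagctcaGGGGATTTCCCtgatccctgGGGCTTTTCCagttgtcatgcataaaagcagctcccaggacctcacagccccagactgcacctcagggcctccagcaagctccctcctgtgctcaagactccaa
Cxcl6: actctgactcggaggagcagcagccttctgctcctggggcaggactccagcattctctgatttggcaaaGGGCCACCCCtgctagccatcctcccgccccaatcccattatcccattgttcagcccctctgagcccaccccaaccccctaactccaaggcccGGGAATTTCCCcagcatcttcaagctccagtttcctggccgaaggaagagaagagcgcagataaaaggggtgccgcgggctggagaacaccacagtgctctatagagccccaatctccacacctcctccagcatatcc
Cxcl13: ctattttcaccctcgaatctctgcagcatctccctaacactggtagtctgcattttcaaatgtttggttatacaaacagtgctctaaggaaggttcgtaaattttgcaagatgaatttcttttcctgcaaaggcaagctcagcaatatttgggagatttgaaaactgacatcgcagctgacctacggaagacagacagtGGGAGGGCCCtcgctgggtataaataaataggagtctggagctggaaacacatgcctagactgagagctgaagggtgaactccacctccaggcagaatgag

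In Cxcl10 the interferon element core begins at -243 relative to the start site, and runs of the NF-kB pattern begin at -187 and -128. Cxcl2 has the NF-kB pattern from -74 and from -54, Cxcl6 from -181 and from -88, and Cxcl13 from -51. The loose pattern is common: it was found in 4 of the 6 PICT-high promoters and 2 of the 5 OMCT-high ones, and in 47.3% of all 33469 promoters. The interferon core was found in 1 of the 6, Cxcl10, in 0 of the 5, and in 3.92% of all promoters. A tighter form on either strand, GGG and TTTCC with any 2 bases between, chosen after the data were seen and overlapping the loose pattern, was in 6 of 37 member promoters (Ccl9, Ccl20, Ccr3, Cxcl1, Cxcl2 and Cxcl6) and in 1.53% of all. These are matches of letters, and no binding was measured.

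**Figure D5:**
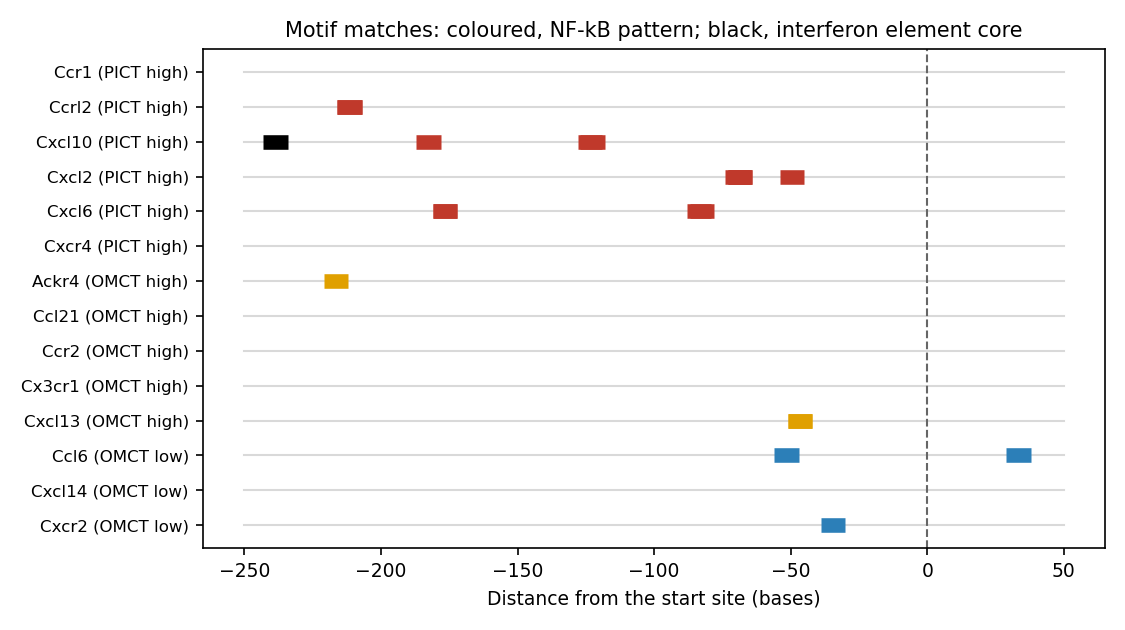
Position of motif matches (distance from the start site in bases) in the promoters of members that were higher in PICT than in both other tissues (red), higher in OMCT than in both (yellow) or lower in OMCT than in both (blue), with black for the interferon element core. Matches lie within 100 bases of the start in Cxcl2, Cxcl6, Cxcl13, Ccl6 and Cxcr2, and Cxcl10 alone holds the black match.

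Of the 7 measured monocyte ligands, Ccl2, Ccl7 and Ccl9 were low around the tooth and high at both sockets. Ccl2, the main attractant of CCR2-bearing monocytes, had 254 in PICT, 37.5 in PCT and 327 in OMCT. PICT exceeded PCT by 2.51 and OMCT did by 2.86, while PICT and OMCT differed by -0.36. That last difference is smaller than the SD between probe sets of a gene, 0.47, which is not a spread between replicate arrays.

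Ccl7, a neighbour of Ccl2 that shares its receptor, had 71.6, 22.8 and 127, with 1.35 and 2.10 over PCT. Ccl9, a CCR1 ligand of rodents, had 312, 50.0 and 212 in PICT, PCT and OMCT, so that PICT exceeded PCT by 2.45 and OMCT did by 1.91. Pf4, platelet factor 4, stood at 289, 48.7 and 294, with 2.37 and 2.40. For each of these genes PCT was low and the sockets differed by less than 1.

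Ccl3, the macrophage inflammatory protein 1 alpha that binds CCR1, had 110 in PICT, 27.3 in PCT and 44.9 in OMCT. It was higher in PICT by 1.72 and 1.15. Ccl5, a CCR1 ligand made by T cells, had 32.7, 5.92 and 9.52 and stayed under the median probe set. In PCT the Ccl5 signal was no brighter than the top negative control, so PICT was at least 4.09-fold higher there. Ccl4 did not exceed that control on any array.

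Ccl6 was the 1 monocyte ligand that was lower in OMCT than in PCT. This rodent CCR1 ligand, made by myeloid cells, had 1211 in PICT, 882 in PCT and 165 in OMCT. It was higher in PICT than in OMCT by 2.81, lower in OMCT than in PCT by -2.36, and differed by 0.45 between PICT and PCT. Ccl6 and Ccl9 lie next to each other in the assembly with 0 protein-coding genes between them, yet their differences between OMCT and PCT were -2.36 and 1.91. Pf4 and Ppbp are adjacent as well, with 2.40 and -2.20 in the same comparison.

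Receptors of monocytes split between the sockets. Ccr1, the receptor for Ccl3, Ccl5, Ccl6, Ccl7 and Ccl9, had 289 in PICT, 47.6 in PCT and 66.6 in OMCT. It was higher in PICT by 2.40 and 1.98, and OMCT and PCT differed by 0.42. Ccr1 was thus high around the implant alone.

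Ccr2, the receptor for Ccl2 and Ccl7 on classical monocytes, had 90.5 in PICT, 52.3 in PCT and 244 in OMCT. OMCT exceeded PCT by 2.05, and PICT lay at -1.35 against OMCT. Cx3cr1, the fractalkine receptor of patrolling monocytes and resident macrophages, had 77.2, 50.5 and 262, with 2.19 for OMCT against PCT and -1.65 for PICT against OMCT. Both receptors were high at the extraction site and lower around the implant, although Ccl2 was high at both. The ligand Cx3cl1, a membrane-anchored chemokine of endothelium and epithelium, was highest in PCT, with 15.3, 67.9 and 20.8. Its difference from PCT was -1.67 in PICT and -1.38 in OMCT, the latter -0.77 as deposited.

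Macrophage markers were also low around the tooth. Relative to PCT, 9 of 14 were higher and 0 lower in PICT, and 13 and 0 in OMCT. The defining marker Csf1r differed by 2.35 and 2.92. Between PICT and OMCT 0 were higher and 4 lower: C1qb at -2.49, C1qa at -1.95, C1qc at -1.57 and Adgre1, the F4/80 antigen, at -1.32, while Csf1r differed by -0.57, Itgam by -0.04 and Lyz2 by 0.09. None of the 14 was at or under the negative control on any array. The part of macrophage number or kind in the chemokine levels was not tested.

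Homeostatic ligands were highest at the extraction site or around the tooth. Cxcl13, which draws B cells and follicular T cells through CXCR5, had 450 in PICT, 229 in PCT and 1713 in OMCT. OMCT exceeded PCT by 2.85, and PICT lay at -1.91 against OMCT. The order was OMCT, PICT, PCT, with the last pair 0.95 apart. Cxcr5 was dim, at 8.82, 16.2 and 19.2, and of the 4 measured B cell markers 3 were at or under the negative control in PICT, 3 in PCT and 2 in OMCT, Ms4a1 (CD20) on every array.

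Ccl21, made by lymphatic vessels to guide dendritic cells and T cells, had 94.0 in PICT, 102 in PCT and 491 in OMCT. OMCT exceeded PCT by 2.17, and PICT lay at -2.28 against OMCT. Ackr4, the atypical receptor that removes Ccl19 and Ccl21, had 41.6, 80.3 and 553, with 2.66 for OMCT against PCT and -3.48 for PICT against OMCT. Ligand and scavenger were both high in OMCT. Ccl19, the other ligand, was dim at 2.94, 9.60 and 25.5 and did not pass the rule.

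The lymphatic markers were also highest in OMCT: Lyve1 differed by 3.09 between OMCT and PCT and by -2.94 between PICT and OMCT, Prox1 by 1.23 and -1.87, and Flt4 by 1.68 and -2.21. The whole endothelial list counted 3 of 10 higher and 0 lower in OMCT than in PCT, while against OMCT the PICT array had 0 higher and 8 lower. Its summed level was 1830, 3382 and 4198 in PICT, PCT and OMCT, and none of its members was at or under the negative control. Fibroblast markers counted 5 of 9 higher in OMCT than in PCT and 4 lower in PICT than in OMCT. The part of vessel or fibroblast content was not tested.

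Cxcl12, a stromal ligand that retains leukocytes and progenitors through CXCR4, had 122 in PICT, 292 in PCT and 231 in OMCT. It was lower in PICT than in PCT at -1.20. The call does not hold under every reading: the difference was -0.52 as deposited, and its other probe sets gave -0.86 and -0.16. Cxcr4 had 976, 297 and 469 and was higher in PICT by 1.69 and 1.04. A second bright probe set of Cxcr4 gave 1.63 and 0.87 and a dimmer one 0.32 and -0.28, so the difference from OMCT lies at the edge of the rule. Read from their brightest probe sets, ligand and receptor ran in opposite directions between PICT and PCT, with the limits given for Cxcl12.

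Ackr3, the scavenger of Cxcl12, had 102, 115 and 177 and passed the rule nowhere. Ackr1, the vessel receptor that carries chemokines across endothelium, had 108, 198 and 245 in PICT, PCT and OMCT, with -1.12 for PICT against OMCT. Of the endothelial list, Pecam1 at -1.38 and Plvap at -2.27 lay lower in PICT than in OMCT beside it. Ackr2, which degrades inflammatory CC chemokines, had 46.5, 69.3 and 32.1 and did not pass.

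Ccrl2, a receptor that binds chemerin and is induced by inflammatory signals, had 71.7 in PICT, 5.30 in PCT and 18.7 in OMCT. PICT exceeded them by 2.51 and 1.55. In PCT its signal was no brighter than the top negative control, so PICT was at least 8.95-fold higher there. Among the atypical receptors it was the one higher in PICT, whereas Ackr1 and Ackr4 were lower in PICT than in OMCT.

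Among ligands of the epithelium, 2 of 4 were higher in PICT than in OMCT, where 4.04% of all genes were. Cxcl14, made by oral and skin epithelium, had 319 in PICT, 382 in PCT and 86.9 in OMCT. It was higher in PICT than in OMCT by 1.78 and lower in OMCT than in PCT by -2.03. The other, dim probe set of Cxcl14 gave -0.20 and 0.42, and the mean of both did not pass. Ccl20, which calls CCR6-bearing Th17 cells and dendritic cells, had 60.6, 40.4 and 24.5, with 1.06 for PICT against OMCT. That call was kept under 6 of the 8 alternative settings.

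Differentiated epithelium was lower in OMCT than in PCT for 9 of 10 markers, with Loricrin at -5.90, Sprr1a at -5.73, Cnfn at -5.60 and Krt78 at -5.45, beside these ligands and beside Ccl6 and Cxcr2. That part in their levels was not tested. Ccr6, the receptor of Ccl20, had 52.8, 27.7 and 55.7. Ccl27, the skin ligand for CCR10, had 28.5, 33.0 and 16.1, Ccl28, a mucosal one, 11.1, 4.72 and 27.3, and Ccr10 itself 5.93, 12.8 and 4.58. None of these passed the rule.

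The remaining members were mostly dim. Of the 22 that passed in no comparison, 18 lay under the median probe set on all 3 arrays and could not have passed, and the other 4 were Ackr2, Ackr3, Ccr6 and Cxcl16. Cxcl16, a transmembrane ligand and scavenger of oxidised lipid, was bright and even, at 1078 in PICT, 1040 in PCT and 821 in OMCT. PICT differed from them by 0.05 and 0.39. Ligands of eosinophils and type 2 cells were dim on every array. Ccl11 (eotaxin) had 7.15, 37.7 and 8.16, highest in PCT at -1.54 for PICT, Ccl17 had 1.18, 5.49 and 17.7, Ccl22 4.53, 1.71 and 8.40, and Ccl24 9.63, 9.52 and 17.3. Eosinophil and mast cell markers were dim as well, with 8 of 9 at or under the negative control in PICT, 5 in PCT and 3 in OMCT. That control differs between the arrays, so these counts do not rank the tissues. The summed level of the 9 was 52.7, 139 and 44.5, highest in PCT. Ccr3, the eotaxin receptor, had 16.7, 10.4 and 1.22, Ccr4 did not exceed the negative control on any array, and Xcl1, a lymphocyte ligand, had 14.2, 8.85 and 8.40.

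Genes around the chemokine system were read from lists. Relative to PCT, 7 of 19 measured genes of receptor signalling were higher and 0 lower in PICT, and likewise 7 and 0 in OMCT (11 and 10 higher as deposited). Between PICT and OMCT 1 was higher, the kinase Jak2 at 1.19, and 1 lower, the receptor kinase Grk5 at -1.12. Among those above the negative control on both arrays, the largest differences of PICT from PCT were C5ar1, the complement C5a receptor, at 2.61, Fgr, a myeloid Src kinase, at 2.07 and Rac2, a GTPase of leukocyte migration, at 1.71. The shared subunits Gnai2 and Gnb1 differed by -0.48 and -0.39. Rgs1, a brake on G protein signals of leukocytes, was also past the rule in PICT against PCT, but its PCT signal lay under the top negative control.

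Relative to PCT, PICT had 3 higher and 0 lower among 13 cytokines that induce chemokines: Osm (oncostatin M) at 2.02, Il1b at 1.94 and Il1a at 1.13. Osm and Il1b were also higher in PICT than in OMCT, at 2.61 and 1.57, and 0 were lower. In OMCT against PCT none of the 13 passed (2 higher as deposited). Tnf had intensities as deposited of 42.8, 4.14 and 25.6 in PICT, PCT and OMCT, under the median probe set.

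Among 10 proteases known to cut chemokines, PICT had 4 higher and 0 lower relative to PCT, and OMCT had 6 and 0. Mmp13 (collagenase 3) differed by 4.82 and 6.14, Ctss (cathepsin S) by 3.15 and 3.44, Mmp9 (gelatinase B) by 2.70 and 1.11 and Mmp12 (macrophage elastase) by 1.55 and 1.70. Mmp9 was also higher in PICT than in OMCT, at 1.59, whereas Mmp2 at -1.78 and Mmp13 at -1.32 were lower. Whether any chemokine was cut was not measured.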

How the data were processed

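RNA from laser-microdissected tissue was measured on 3 Affymetrix rat arrays, 1 per tissue; RNA was amplified and biotin-labelled with a 3' primed kit, per the labels' protocols. The deposited values are linear intensity values, 1 per probe set; how the authors summarised probes or scaled arrays was not stated in the labels or files. Of 31099 probe sets, 20832 had 1 gene symbol in the 2016 platform annotation, 436 several and 9831 none; only the first were used. All 48 members matched RefSeq by gene ID.

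Intensities were scaled to a common median, 8.78 (the 20th percentile of all values) was added and log2 taken (Python 3.11.15, pandas 2.3.3, numpy 2.4.6). Each gene was read from its brightest probe set by mean log2 over the arrays. The 2-fold rule asks for a log2 difference of 1 with the brighter array at or above its median. The number of arrays limits the precision, and no test was possible. The highest negative control was the highest of 3 Trpn probe sets (8.36 in PICT, 5.71 in PCT and 3.60 in OMCT as deposited). "At least" folds set the dim array at that control. The calling step was run on simulated arrays with large planted changes in bright genes and little noise. That checks the code and says nothing about dim genes or replicate spread. Members and lists were chosen with earlier results of these data known. Named genes were all members past the rule, their receptors, the atypical receptors and, per list, up to 4 genes with the largest differences. Others were named after their values were seen (Ifng, Tnf, Gnai2, Gnb1, Itgam, Lyz2, Csf1r, Ms4a1, Cd4, Cd8b, S100a8, Csf3r, Itgb2, Lcn2, Pecam1, Plvap and the lymphatic markers).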

Additional observations from a re-analysis of the deposited data

How the results depend on the processing

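Over 8 alternative settings, 21 of the 47 calls of single members in the 3 comparisons passed the rule every time, and 0 changed direction. Asking both arrays to be bright removed 18 calls, a pseudocount at the median of all values (48.1) 10, averaging the probe sets of a gene 5, and leaving the intensities as deposited 4; the alternatives with pseudocount 1, with quantile normalization, with log2 taken before centring or with no brightness filter removed 0. As deposited, PICT had 20 higher members and 1 lower relative to PCT (12 and 3 after scaling), where 14.1% and 0.9% of all genes were. OMCT had 15 and 3 (9 and 5 after scaling), where 17.6% and 2.1% of all genes were. The PCT array had the lowest median as deposited, and what lay behind that was not tested. With both arrays required to be bright, PICT had 5 higher members relative to PCT and 6 relative to OMCT. Over all genes the shares were 1.78% and 2.25%. By construction this filter removes genes that are dim in 1 tissue. With the pseudocount at the median, 7 members were higher in PICT than in OMCT and 3 lower in OMCT than in PCT. Over all genes the shares were 2.26% and 3.46%. A larger pseudocount shrinks the differences of dim genes. The members' median difference stayed above 0 under every setting run, from 0.16 to 0.84 for PICT minus PCT, 0.14 to 0.40 for PICT minus OMCT and 0.02 to 0.64 for OMCT minus PCT. As deposited, however, the median over all genes was itself 0.47 for PICT minus PCT and 0.54 for OMCT minus PCT. A value above 0 therefore does not set the members apart there. Under the other settings the median over all genes lay below 0. No paired analysis was possible because each tissue has 1 array, and no array could be left out. Signal over background limits the 18 members that were dim on all arrays.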
